A study of Mus musculus with 195 samples.

Results

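The heat shock proteins and chaperones described here were 10 genes, chosen by name: the cytosolic Hsp90 pair Hsp90aa1 and Hsp90ab1, the constitutive Hsp70 gene Hspa8, the J-domain gene Dnaja1, the small heat shock gene Hspb1, the endoplasmic reticulum genes Hspa5 and Hsp90b1, and the mitochondrial genes Hspd1, Hspe1 and Hspa9. They were 10 of the 19736 genes in the table of molecule counts, and all 10 were detected in each of the 3 populations. The rule that picked them uses their names only, and it was drawn up with earlier results of these data known.

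Molecular chaperones bind unfolded or half-folded proteins and help them reach their native shape. Hsp70 proteins act first on nascent chains with J-domain partners that stimulate their ATPase, Hsp90 proteins finish the folding of kinases and receptors, and chaperonins enclose a substrate in a cavity. Many of these genes are abundant without stress, and the same genes can be induced further through heat shock factor or, in the endoplasmic reticulum, through the unfolded protein response.

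The polyadenylation sites and transcripts were counted as single molecules, by sequencing the 3′ end of each cDNA with a random molecular barcode. All cells came from the mouse embryonic stem (ES) cell line 46C, which carries a GFP reporter in Sox1 and descends from E14tg2a. ESC-2i cells grew without serum in PD0325901 (1 µM, a MEK inhibitor), CHIR99021 (3 µM, a GSK3 inhibitor) and LIF (10 ng/ml), ESC-FCS cells grew in 10% fetal bovine serum and LIF (10 ng/ml), and NSC were neural stem cells derived from the ES line in monolayer culture and grown with EGF and bFGF. Small cells with G1 DNA content were sorted from each population, 48 per population in 2 library batches of 24. A further 48 single ESC-FCS cells and 1 ESC-FCS pool of 48 cells were made as controls, and 2 ESC-2i pools of 48 cells were made from purified RNA. The labels name no replicate cultures, so each population was counted as 1 sample of 1 line. No test between populations was possible, and intervals between populations cover counting error only.

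After cells under 1000 molecules were left out, 33 ESC-2i, 33 ESC-FCS and 41 NSC cells remained, with 368362, 226683 and 151877 molecules. The median ESC-2i cell held 10864 molecules, the median ESC-FCS cell 6375 and the median NSC cell 3282. The same 24 cell barcodes were used in every batch, and the 144 pairs of cell and batch barcode were all different. The population labels were checked against markers. The 12 ES cell markers summed to 39.0 molecules per 10000 for ESC-2i, 33.7 for ESC-FCS and 1.32 for NSC, where 8 of the 12 (Nanog and Pou5f1 among them) were at 0. The 10 neural stem cell markers summed to 1.95, 1.59 and 55.2, and all 10 were seen in NSC. Of the neuron markers, Stmn2 had 93, 100 and 0 molecules and Map2 had 0, 6 and 59.

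Summed over the 10 genes, chaperone transcripts made up 119 of every 10000 molecules in ESC-2i (exact Poisson interval 115 to 123), 131 in ESC-FCS and 67.0 in NSC (63.0 to 71.3). The 2 library batches gave 125 and 114 in ESC-2i, 125 and 139 in ESC-FCS, and 73.2 and 60.2 in NSC. Both NSC batches lay below all 4 ES cell batches. The lower sum in NSC came from Hsp90aa1, Hsp90ab1 and Hspb1: the other 7 genes summed to 30.6 in ESC-2i, with 30.3 and 31.0 in the batches, 35.9 in ESC-FCS, with 30.5 and 43.2, and 34.6 in NSC, with 38.4 and 30.4, and these ranges overlapped. These levels are relative to all molecules of a population: per ERCC spike-in molecule the median log2 ratio of all genes was -0.456 in NSC against ESC-2i, -1.394 in NSC against ESC-FCS and 1.025 in ESC-FCS against ESC-2i. Because 1 molecule stands for 1 transcript end, these levels were not divided by transcript length. The order of genes is that of molecules counted.

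**Figure D1:**
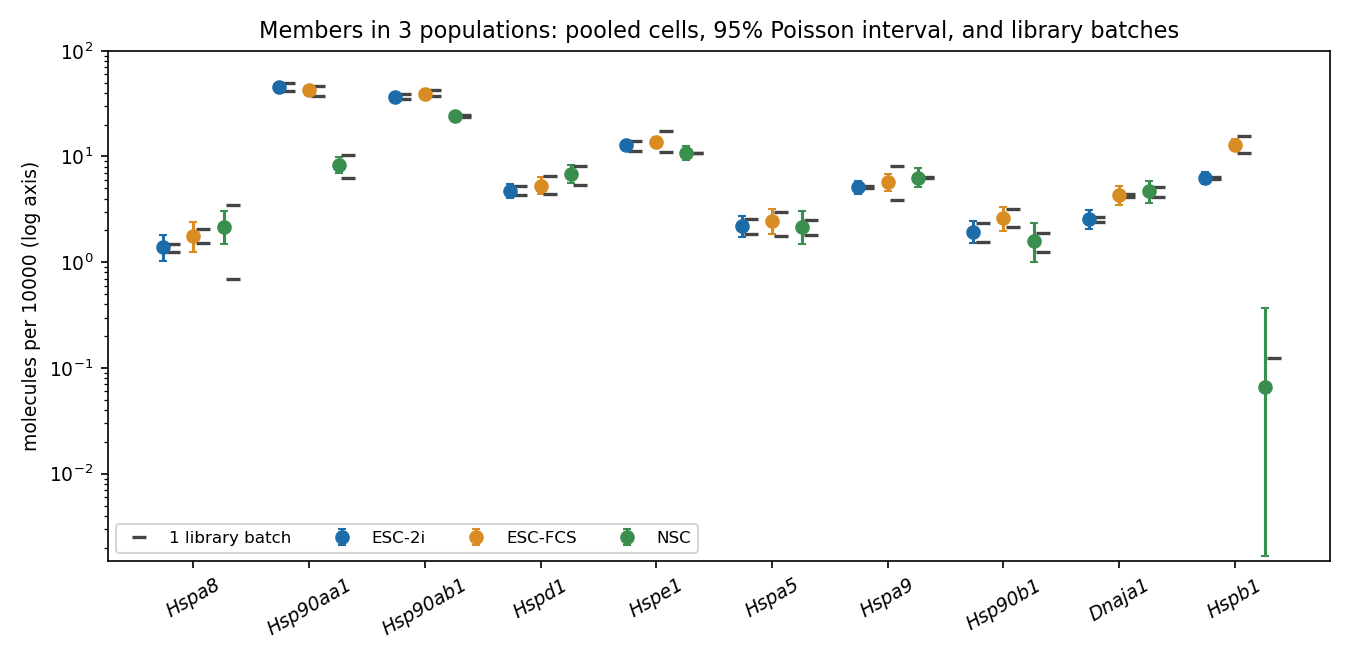
Molecules per 10000 (log axis) of each chaperone gene in ESC-2i, ESC-FCS and NSC, with the pooled value and its counting interval and the 2 library batches of each population. Hsp90aa1 and Hspb1 lie lowest in NSC, and the NSC batch in which Hspb1 had no molecule cannot be drawn on this axis.

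Sequences around the polyadenylation sites are given first for the genes whose site use differed or whose counting needs care. Each line holds the 30 bases that end at the site (GRCm38, read along the transcript), with the polyadenylation hexamer AATAAA or ATTAAA in capitals where it is present. Of the most used sites of 5579 genes, 68.3% had AATAAA in this window, 15.3% had only ATTAAA and 16.4% had neither.
Dnaja1 first site, chr4:40733074-40733103, plus strand: ttaaatgaagAATAAAcacaaatataaaag
Dnaja1 distal site, chr4:40733868-40733897, plus strand: tatggctgtctaatatactgattacaaagt
Hspe1 first site, chr1:55091206-55091235, plus strand: cttttatAATAAAcagatgatgcctaaact
Hspe1 distal site, chr1:55091271-55091300, plus strand: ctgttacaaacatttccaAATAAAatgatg
Hsp90ab1 main site, chr17:45567780-45567809, minus strand: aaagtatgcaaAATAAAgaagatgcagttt
Hsp90ab1 second site, chr17:45567802-45567831, minus strand: gttttattttgttctaaaATTAAAagtatg
Hsp90aa1 main site, chr12:110691039-110691068, minus strand: cattctgctttaaaagataaatacagagga
Neither hexamer was in the window of the Dnaja1 distal site or of the Hsp90aa1 main site. This says only that those letters are not in the window. Of the 20 bases after the Hsp90aa1 main site 10 were A, beside 3 after the Dnaja1 distal site. Whether this changed the Hsp90aa1 count was not tested.

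The cytosolic Hsp90 genes were the most abundant members. Hsp90aa1 encodes the inducible isoform and lies on chromosome 12 from 110690605 to 110702728 on the minus strand. It was at 45.3 molecules per 10000 in ESC-2i (43.2 to 47.5, 1669 molecules), 43.0 in ESC-FCS (40.3 to 45.8, 974 molecules) and 8.36 in NSC (6.97 to 9.95, 127 molecules). Its rank among all genes was 19 for ESC-2i, 28 for ESC-FCS and 122 for NSC. The batches were 49.3 and 41.7, 46.9 and 37.7, and 10.3 and 6.24, so every NSC batch was lower than every ES cell batch. Over single cells the lowest, median and highest levels were 18.8, 42.8 and 76.2 in ESC-2i, 0, 40.1 and 69.2 in ESC-FCS, and 0, 7.26 and 26.0 in NSC. The lowest ESC-2i cell was thus within the NSC range, while the median cells stood well apart. NSC were 5.42-fold lower than ESC-2i (log2 ratio -2.44, -2.71 to -2.18) and 5.14-fold lower than ESC-FCS (log2 ratio -2.36, -2.64 to -2.09). With each cell thinned to 1000 molecules, 97.7% of ESC-2i cells, 95.0% of ESC-FCS cells and 54.0% of NSC cells held an Hsp90aa1 molecule.

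Hsp90ab1, the constitutive isoform, lies on chromosome 17 from 45567775 to 45573271 on the minus strand. Its level per 10000 was 36.8 for ESC-2i (34.9 to 38.8), 39.2 for ESC-FCS (36.7 to 41.9) and 24.0 for NSC (21.6 to 26.6). The batches were 38.8 and 35.0, 37.0 and 42.2, and 24.4 and 23.6, with both NSC batches again below the others. The log2 ratio of NSC to ESC-2i was -0.61 (-0.78 to -0.45) and to ESC-FCS -0.71 (-0.89 to -0.53), within 2-fold. The order of the pair therefore differed between populations: Hsp90aa1 was above Hsp90ab1 in ESC-2i, and Hsp90ab1 was above Hsp90aa1 in NSC, in both batches each time. This order did not carry over to the libraries made apart, where Hsp90ab1 was above Hsp90aa1 in the ESC-2i pools (32.1 against 28.8), in the ESC-FCS control cells (60.7 against 50.9) and in the ESC-FCS pool (39.5 against 24.6). In ESC-FCS the counting intervals of the 2 genes stood side by side at 40.3 to 45.8 and 36.7 to 41.9, and their order differed between the batches.

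**Figure D2:**
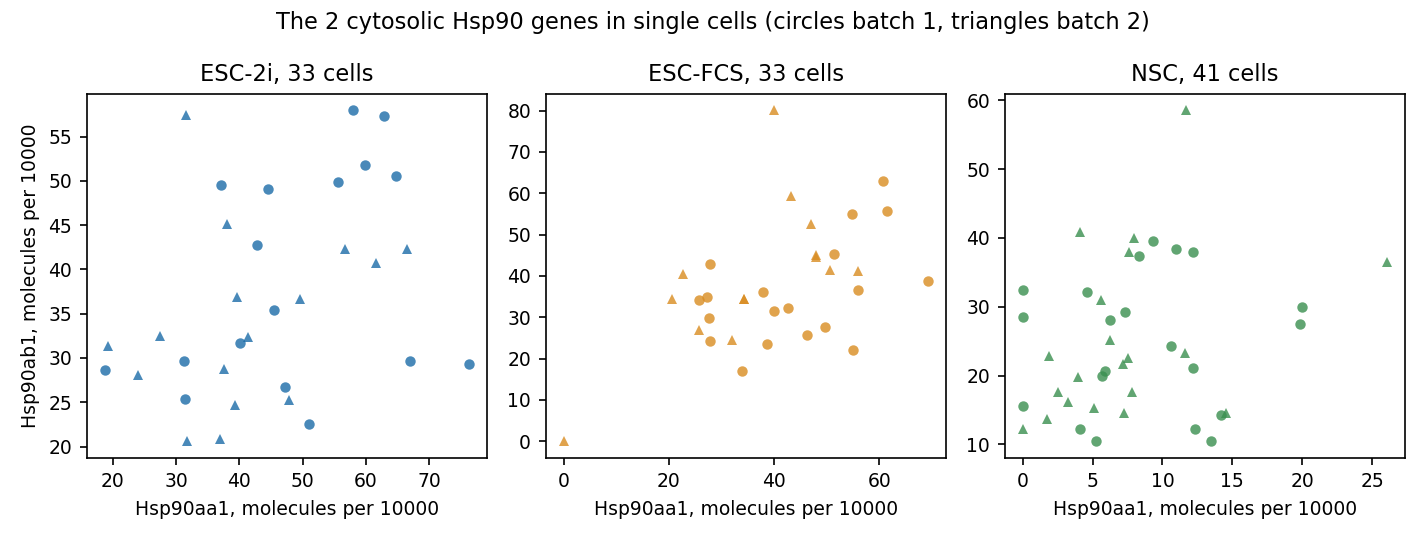
Hsp90ab1 (y axis) against Hsp90aa1 (x axis) in single cells, both in molecules per 10000, with 1 panel per population whose axes differ, circles for the first batch and triangles for the second. NSC lie at low Hsp90aa1 with 4 cells at 0, and 1 ESC-FCS cell holds neither transcript.

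Hspa8, the constitutive cytosolic Hsp70, was at 1.38 molecules per 10000 in ESC-2i (1.03 to 1.82), 1.76 in ESC-FCS (1.26 to 2.40) and 2.17 in NSC (33 molecules). The NSC batches were 3.51 and 0.69 and spanned all ES cell values. The 250 bases before its main site matched a second annotated gene, Gm26825, at 98.8% identity over 253 bases, and reads that aligned to more than 1 place had been removed, so its count is uncertain. Dnaja1, a J-domain partner of Hsp70, was at 2.55 in ESC-2i (2.06 to 3.12), 4.32 in ESC-FCS (3.51 to 5.27) and 4.67 in NSC (3.65 to 5.90). Its batches were 2.41 and 2.68, 4.45 and 4.15, and 5.14 and 4.16, so ESC-2i was lowest. The log2 ratio to ESC-2i was 0.76 in ESC-FCS (0.34 to 1.18) and 0.87 in NSC (0.41 to 1.33).

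Hspb1, the small heat shock protein Hsp27, which holds unfolded proteins without ATP, had the widest range of the 10 genes. It lies on chromosome 5 from 135887919 to 135889563 on the plus strand. ESC-2i cells held 6.24 molecules of Hspb1 per 10000 (5.46 to 7.11, 230 molecules) and ESC-FCS cells 13.0 (11.5 to 14.5, 294 molecules). In NSC 1 molecule was found in 1 of 41 cells. The batches were 6.36 and 6.14 in ESC-2i, 10.9 and 15.8 in ESC-FCS, and 0.13 and 0 in NSC, and the batches of no 2 populations overlapped. The ESC-FCS level was 2.08-fold that of ESC-2i (log2 ratio 1.05, 0.80 to 1.31). The 4 pairs of batches ranged from 0.78 to 1.36, and without the second batch the log2 ratio was 0.78, so that the difference was then within 2-fold. Against NSC the log2 ratio was -6.57 to ESC-2i, with a counting interval of -11.88 to -4.07, and -7.62 to ESC-FCS, with an interval of -12.93 to -5.13. At 1000 molecules per cell, 44.9% of ESC-2i, 63.7% of ESC-FCS and 0.8% of NSC cells held an Hspb1 molecule.

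The endoplasmic reticulum genes differed less. Hspa5 encodes BiP, the Hsp70 of the endoplasmic reticulum, and stood at 2.20, 2.47 and 2.17 molecules per 10000 in ESC-2i, ESC-FCS and NSC. Hsp90b1 encodes Grp94, the Hsp90 of that compartment, and stood at 1.93, 2.60 and 1.58. For both genes the batches of the 3 populations overlapped, except that both NSC batches of Hsp90b1 lay below both ESC-FCS batches. The promoter of each gene in RefSeq (GRCm38.p6, from 250 bases before to 50 after the start) held the endoplasmic reticulum stress element, which is CCAAT, then 9 bases of any kind, then CCACG. It was searched on both strands and was present in 39 of 32851 promoters (0.119%). The element is in capitals below, on the strand of the gene. The Hsp90b1 promoter also held it on the other strand, at chr10:86705528-86705556, which is not shown.
Hspa5, chr2:34772020-34772048: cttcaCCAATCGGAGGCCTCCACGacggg
Hsp90b1, chr10:86705633-86705661: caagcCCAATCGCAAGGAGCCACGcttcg
A match is a description of the letters, and no binding was measured.

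Of the mitochondrial genes, Hspd1 (Hsp60) and Hspe1 (Hsp10) encode the chaperonin and its lid, and Hspa9 encodes mortalin, the Hsp70 of the matrix. Hspd1 was at 4.75, 5.29 and 6.85 molecules per 10000 in ESC-2i, ESC-FCS and NSC, with batches of 5.22 and 4.33, 4.38 and 6.53, and 8.15 and 5.41. Hspe1 was at 12.7, 13.8 and 10.8, with batches of 11.2 and 14.1, 11.1 and 17.3, and 10.9 and 10.7. Hspa9 was at 5.10, 5.69 and 6.32. The NSC batches of Hspd1 and Hspa9 lay above both ESC-2i batches and those of Hspe1 below them, and each difference was within 2-fold. The 250 bases before the Hspe1 main site matched a second annotated gene at 98.8% identity, so its count is uncertain as well. Hspd1 and Hspe1 lie head to head on chromosome 1, and their annotated spans overlap. The stretch between a RefSeq start of Hspd1, which has 2 promoters there, and the start of Hspe1 held the heat shock element of 3 units. In this element GAA and TTC alternate with 2 bases of any kind between them, on either strand. It was present in 198 of 32851 promoters (0.603%). Dnaja1 and Hspb1 held only the shorter element of 2 units, present in 15.1% of promoters. Promoter sequences of Hspa8, Hsp90aa1, Hsp90ab1 and Hspa9 were not available, so these genes were not searched. The element of 3 units is in capitals on the Hspe1 strand below.
Hspe1, chr1:55088056-55088084: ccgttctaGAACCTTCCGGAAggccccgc

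Against ESC-2i, 2 of the 10 genes passed 2-fold in NSC, both lower (Hsp90aa1 and Hspb1), where 22.3% of the 1920 genes compared were lower and 13.9% higher (36.2% in either direction). Against ESC-FCS the same 2 were lower in NSC, beside 14.9% of 1305 genes lower and 14.8% higher (29.7% in either direction). Between the ES cell cultures 1 gene, Hspb1, was past 2-fold and higher in ESC-FCS (not without the second batch, nor as a mean over cells, where the log2 ratio was 0.96 and Dnaja1 was at 1.02), beside 5.09% of 2159 genes higher and 10.1% lower (15.1% in either direction). In either direction 2, 2 and 1 of 10 members passed, and 10 genes are too few to set these counts apart from the shares of all genes. The median log2 ratio of the members was -0.13, -0.27 and 0.16 in the 3 comparisons, and that of all genes -0.16, -0.05 and -0.02.

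Other chaperone genes came from lists of 106 genes. In NSC against ESC-2i, 4 of 8 J-domain genes with enough molecules were past 2-fold lower and 0 higher, among them Dnajc15 (51 molecules in ESC-2i and 3 in NSC, log2 ratio -2.81) and Dnajb6 (44 and 7, -1.37). Of all 1920 genes compared, 22.3% were lower and 13.9% higher. Of 10 co-chaperones 1 was higher and 1 lower. These were Ppid, an Hsp90-binding cyclophilin (log2 ratio 1.30), and Sugt1, an Hsp90 partner (-1.84). Of 12 subunits of the cytosolic chaperonin TRiC and prefoldin 1 was higher, and of 5 endoplasmic reticulum genes and 3 mitochondrial folding genes 0 passed in either direction. In these groups the log2 ratios furthest from 0 were 1.00 for Cct8 and -0.91 for Pfdn1, 0.92 for Atf4, a transcription factor of the stress response, and 0.89 for Ppib, an endoplasmic reticulum cyclophilin, and -0.94 for Grpel1, an exchange factor for mortalin, and -0.34 for Clpp, a mitochondrial protease. Of the Hsp70 and Hsp110 genes 1 of 2 was higher, Hsph1, an exchange factor for Hsp70 (log2 ratio 1.14), beside Hspa4 at -0.29. The heat shock factors had too few molecules to compare, with 3, 5 and 5 for Hsf1 and 16, 7 and 4 for Hsf2, which were named after their counts were seen.

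Immediate early genes, which cells can switch on during handling as well as after growth factors, summed per 10000 molecules to 4.86 for ESC-2i, 7.59 for ESC-FCS and 22.2 for NSC. The NSC batches were 20.4 and 24.1, above the 3.96 to 8.60 of the ES cell batches. Fos had 7, 3 and 46 molecules and Egr1 2, 4 and 104. This sum was higher in the population in which Hsp90aa1 and Hspb1 were lower, and its part in those results was not tested.

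Variation between cells of 1 population was compared with technical noise, estimated from ERCC spike-in RNA with a margin of 0.25 on the squared coefficient of variation (CV2). With the Brennecke test at a Benjamini-Hochberg adjusted p of 0.1, 0 of 10 members in ESC-2i, 0 of 10 in ESC-FCS and 0 of 9 in NSC were called variable, beside 0.608% of 3616, 3.36% of 2026 and 10.7% of 1157 genes. At an unadjusted p of 0.05 the counts were 0, 1 (Hspa9) and 1 (Hspa5), beside 2.57%, 7.85% and 16.9% of all genes. The CV2 of Hspa9 in ESC-FCS was 1.06 against a technical 0.431 (Brennecke test, adjusted p = 0.398). Hsp90aa1 in ESC-2i had a CV2 of 0.104 against a technical 0.048, which was more than the noise and less than the margin asks. Without the margin the test called 1, 4 and 3 members, Hsp90aa1 alone in ESC-2i Hsp90aa1, Hsp90ab1, Hspa9 and Hspb1 in ESC-FCS, and Hspa5, Hspa9 and Dnaja1 in NSC, beside 3.18%, 9.53% and 29.6% of all genes.

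**Figure D3:**
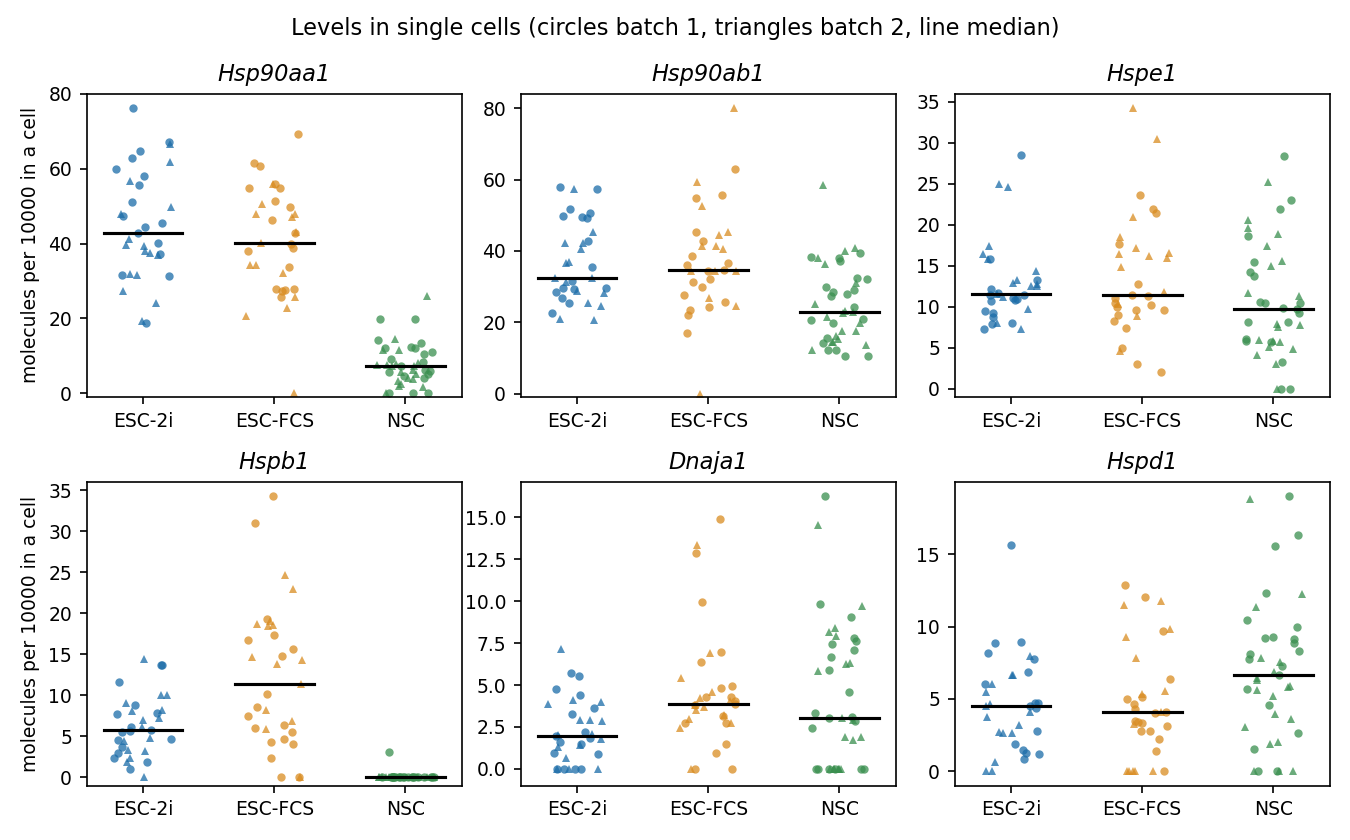
Levels of Hsp90aa1, Hsp90ab1, Hspe1, Hspb1, Dnaja1 and Hspd1 in every cell kept (molecules per 10000), by population, with a line at the median. The Hsp90 genes are seen in nearly all ES cells, and Hspb1 in 32 of 33 ESC-2i cells, 30 of 33 ESC-FCS cells and 1 of 41 NSC cells.

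Covariation between cells was weak for most pairs of members with at least 2 molecules per cell. The median correlation of log2 levels over member pairs was 0.047 in ESC-2i (36 pairs), 0.222 in ESC-FCS (21 pairs) and 0.104 in NSC (10 pairs), beside 0.011, 0.043 and 0.033 over all gene pairs. These are descriptions over 33, 33 and 41 cells that share depth and library batch. The Hsp90 pair had r = 0.36 in ESC-2i (0.35 and 0.29 in the batches), 0.87 in ESC-FCS (0.40 and 0.96) and 0.20 in NSC (0.00 and 0.49). The ESC-FCS value rested on 1 cell of the second batch, the shallowest kept, with 1079 molecules and no Hsp90 molecule of either gene. Without it r was 0.35 for the pair, and the median over member pairs was 0.041. Hspa5 and Hsp90b1 had r = 0.44 in ESC-2i, with 0.43 and 0.45 in the batches, at percentile 98.5 of all pairs. This was the highest of the 36 member pairs, and in the other populations the pair had too few molecules per cell. The chaperonin pair Hspd1 and Hspe1, which share a stretch of DNA, had r = 0.20, 0.03 and -0.06. These values lay inside the 5th to 95th percentile of all pairs in each population. Hspd1 held 5.30, 3.64 and 2.54 molecules per cell, with populations in the same order. The part of counting noise in the low correlations of member pairs was not tested.

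The genes whose cell-to-cell pattern was nearest were ranked by mean Spearman correlation over the 3 populations. For Hspa8 they were Atp5d (0.26), Cct4 (0.23) and Psmb4 (0.23), for Hspa5 Acly (0.30), mt-Tf (0.25) and Scd2 (0.21), and for Hspd1 Cox6b1 (0.32), Ran (0.28) and Slc25a5 (0.26). Hspe1 was at rank 40 of 190 genes for Hspd1, and 191 genes were compared for Hspa8 and for Hspa5. All of these correlations were low. The genes compared had at least 2 molecules per cell in each population, a limit that Hspa8 and Hspa5 themselves did not meet. Hspa8 held 1.55, 1.21 and 0.80 molecules per cell in ESC-2i, ESC-FCS and NSC, and Hspa5 2.45, 1.70 and 0.80.

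Most molecules of the 10 genes ended in the 3′ UTR, from 83.8% for Hsp90b1 to 99.9% for Hspe1. The share of the most used site differed by 10 percentage points or more in 4 of 7 members compared between NSC and ESC-2i (48.5% of 573 genes), in 5 of 7 between NSC and ESC-FCS (44.3% of 501 genes) and in 0 of 7 between ESC-FCS and ESC-2i (36.7% of 952 genes). All pairs of batches went the same way for Dnaja1 and Hspe1 in both comparisons with NSC, and in NSC against ESC-FCS also for Hspa9 (6.78 to 33.1 percentage points) and Hsp90b1 (-33.7 to -10.5).

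The distal Dnaja1 site lies 794 nt downstream of the first, near an annotated transcript end. The annotated gene itself runs further downstream. It took 17.0% of molecules in ESC-2i (16 of 94), 15.3% in ESC-FCS (15 of 98) and 43.7% in NSC (31 of 71). The batches were 11.9% and 21.2%, 17.2% and 12.5%, and 46.3% and 40.0%, with no overlap between NSC and the ES cells. The share of the first site differed by -31.5 percentage points (NSC minus ESC-2i) and -38.6 (NSC minus ESC-FCS), so it was lower in NSC. In the libraries made apart, the distal site took 7.5% in the ESC-FCS control cells and 15.3% in the ESC-FCS pool, but 41.7% and 40.4% in the ESC-2i pools. The ESC-2i pools thus lay beside NSC and not beside the ESC-2i cells.

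The distal Hspe1 site, 65 nt downstream, took 26.7% in ESC-2i (125 of 469), 28.5% in ESC-FCS (89 of 312) and 48.2% in NSC (79 of 164). The batches were 24.0% and 28.6%, 24.8% and 31.7%, and 41.4% and 55.8%. The ESC-FCS control cells and pool were at 40.3% and 48.3%, within or near the NSC range, and the ESC-2i pools at 14.0% and 18.2% of 50 and 11 molecules. The ESC-FCS pool gave the same Dnaja1 share as the ESC-FCS cells, whereas the Dnaja1 share of the ESC-2i pools and the Hspe1 shares of the ESC-FCS control cells and pool differed from those of cells in the same medium. The part of the preparation in these shares was not tested.

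**Figure D4:**
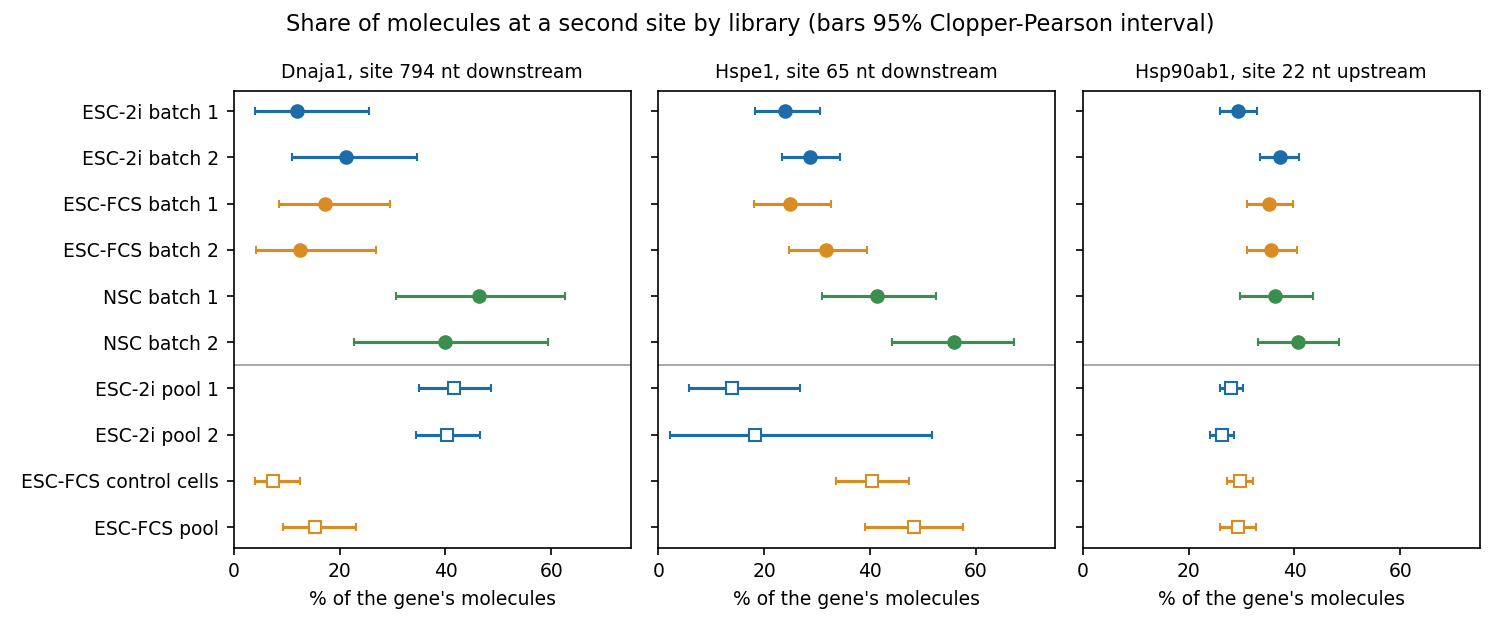
Percent of the molecules of Dnaja1, Hspe1 and Hsp90ab1 at their second site, in each batch (circles) and in the libraries made apart (open squares), with 95% Clopper-Pearson intervals. The distal Dnaja1 site takes 46.3% and 40.0% in the NSC batches, 11.9% and 21.2% in the ESC-2i batches, and 41.7% and 40.4% in the ESC-2i pools.

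Hsp90ab1 ended at its main site in 48.9%, 56.5% and 53.2% of molecules and at the site 22 nt upstream in 33.2%, 35.4% and 38.4%. Of the 20 bases after this upstream site 11 were A, and the part of priming within the transcript in its share was not tested. Hspb1 ended at 1 site in 98.7% of molecules in ESC-2i and 99.3% in ESC-FCS, while the ESC-2i pools had 92.8% and 70.3% there (256 of 276 and 45 of 64 molecules) and NSC held a single molecule. Hsp90aa1 ended at its main site in 90.6%, 93.0% and 91.3% in the same order of populations.

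The libraries made apart gave a second ratio of ESC-FCS to ESC-2i, but in it medium and preparation cannot be told apart. Between the ESC-FCS control cells and the ESC-2i pools 2 members were past 2-fold higher and 4 lower, beside 13.5% and 44.5% of 4980 genes (58% in either direction). Hspb1 was higher in the control cells (log2 ratio 1.33), though the ESC-2i pools themselves held 5.76 and 1.29 molecules per 10000. For Hspb1 the ESC-2i pools were also below the ESC-2i cells (log2 ratio -0.84). Hspe1 was higher by 3.87 on the log2 scale, and Hspa5 lower (log2 ratio -3.75), neither of which differed by 2-fold between the cells of the main set. The other members past 2-fold lower were Hspd1 (log2 ratio -2.56), Hspa8 (-1.50) and Hsp90b1 (-1.25), also within 2-fold in the main set. The ESC-FCS pool against the ESC-2i pools also gave 2 members higher and 4 lower, beside 15.4% and 36.7% of 4946 genes (52.1% in either direction), again with Hspb1 (1.75) and Hspe1 (3.42) the members that were higher.

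The ESC-FCS libraries differed among themselves as well. Against the ESC-FCS cells of the main set, 1 member was past 2-fold in the control cells, Hspa5, which was lower (log2 ratio -1.05), beside 13.5% of 1694 genes higher and 6.43% lower (19.9% in either direction). Between the ESC-FCS pool and the control cells, Hspa8 was higher in the pool (log2 ratio 1.40) and Hsp90aa1 lower, at 24.6 against 50.9 molecules per 10000, beside 6.57% of 1706 genes higher and 3.22% lower (9.79% in either direction).

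The ESC-2i pools and the ESC-2i cells, grown in the same medium, differed at many genes (43.1% of 5349 higher in the pools, 13% lower and 56.1% in either direction, median log2 ratio 0.82). Of the members 4 were higher in the pools and 1 lower. Hspe1 was at 0.63 molecules per 10000 in the pools and 12.7 in the cells, a 20.3-fold difference. Hspa5 was at 16.1 in the pools (log2 ratio 2.87), Hspd1 at 18.1 (1.93) and Hsp90b1 at 6.76 (1.81). Hspe1 and Hspb1 have the shortest transcripts of the 10 genes, 774 and 930 bases against 2394 to 5622. Over all genes the median log2 ratio was -0.12 in the 1296 genes with the shortest transcripts and 1.03, 1.18 and 0.91 in the next 3 groups by length, and the part of transcript length in these differences was not tested.

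**Figure D5:**
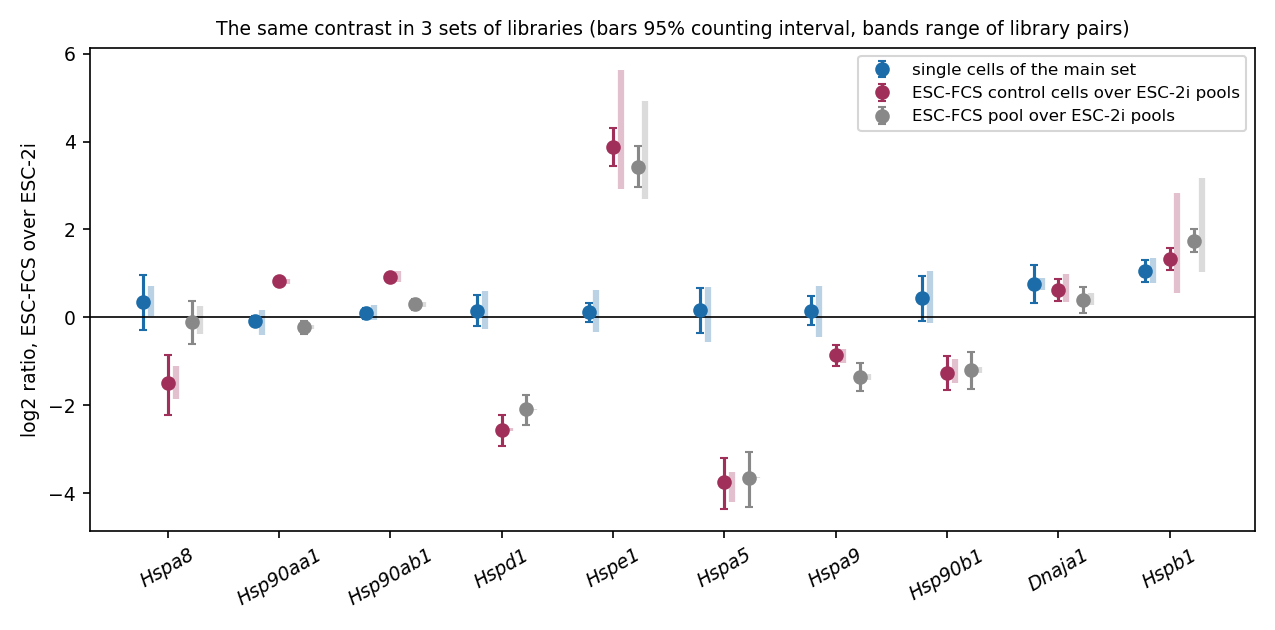
Log2 ratio of ESC-FCS to ESC-2i for each chaperone gene, in the single cells of the main set, in the control cells over the ESC-2i pools and in the ESC-FCS pool over the ESC-2i pools, with 95% counting intervals and bands for the range of library pairs. Hspb1 is above 0 in all 3 sets, while Hspe1, Hspa5, Hspd1 and Hsp90b1 pass 2-fold only in the libraries made apart. Medium and preparation cannot be told apart in the latter.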

How the data were processed

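The deposited values are counts of molecules (UMIs) per gene and per polyadenylation site. The authors aligned reads to GRCm38 with GSNAP, removed non-unique and A-rich reads, merged similar barcodes and merged sites within 12 nt, with HTSeq and R 3.0.2 per the labels. The authors' isoform table was not used, and 0 columns of other series were present. From the counts, pooled molecules per 10000 were computed for cells with at least 1000 molecules (the 48 control cells were pooled without this minimum), with exact 95% Poisson, binomial and conditional intervals, which cover counting error only. Genes with at least 50 molecules in both populations together were compared and called past 2-fold. Variation was tested with the Brennecke test against ERCC (normalized mean over 0.5, margin 0.25). On simulated data this test made more false calls than its nominal rate, so its shares of called genes may be too high. Correlations used log2(level + 1). Site shares were compared at 20 molecules or more. All 10 members are named, with the 2 genes of each wider list furthest from 0 in NSC against ESC-2i and the 3 genes most like Hspa8, Hspa5 and Hspd1 across cells. Members and lists were chosen with earlier results of these data known. Python 3.11.15, numpy 2.4.6, pandas 2.3.3, scipy 1.17.1 and blastn 2.17.0 were used. A sequence withheld from this account, and the result that needs it, are not reported here.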

Additional observations from a re-analysis of the deposited data

Results flagged for a closer look

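Hspa8 was singled out because its difference between ESC-FCS and ESC-2i had opposite signs in 2 sets of libraries. In the single cells the log2 ratio was 0.35, with a counting interval of -0.28 to 0.98 that includes 0 (40 and 51 molecules) and with all 4 pairs of batches higher in ESC-FCS (0.04 to 0.72). Between the ESC-FCS control cells and the ESC-2i pools it was -1.50, with all 4 pairs lower (-1.85 to -1.10). The ESC-FCS pool over the ESC-2i pools gave -0.10. The difference between the sets of libraries was not tested.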

How the results depend on the processing

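No member past 2-fold between the populations changed direction in the alternatives run. Direction was not checked in this way for site differences or for the libraries made apart. Between pairs of batches the called Hspa8 site difference went both ways in NSC against ESC-2i (-10.9 to 23.8 percentage points) and against ESC-FCS (-5 to 19.3). That of Hsp90b1 in NSC against ESC-2i ran from -27.8 to 0.16. No paired analysis was possible because the labels name no replicate cultures and no test between populations was made. The counts of members that follow are given without the share of all genes at the same setting, and show only how far they moved. With a 1.5-fold threshold, 5 members passed in NSC against ESC-2i, 4 in NSC against ESC-FCS, 2 in ESC-FCS against ESC-2i and 10 in the control cells against the ESC-2i pools. In the last of these comparisons 58% of 4980 genes passed 2-fold. Per ERCC molecule 9 passed in NSC against ESC-FCS and 9 in ESC-FCS against ESC-2i, where the median of all genes was -1.394 and 1.025, and with median-ratio scaling 4 passed in NSC against ESC-FCS. Leaving out 1 batch gave 2 to 4, 2 to 2, 0 to 2 and 5 to 6 members in the 4 comparisons (2 in ESC-FCS against ESC-2i without the first batch, 0 without the second). Without the noise margin 1, 4 and 3 members were variable, and leaving out 1 NSC batch gave 0 to 1. The median member correlation in ESC-FCS was 0.0415 by Spearman, 0.0743 without logs, 0.0412 with a higher minimum of molecules per cell, -0.110 at a mean of 5, and 0.0412 without the cell that had no Hsp90aa1 molecule, an alternative chosen after seeing the data. The higher minimum of molecules also left out that cell, which held 1079, so the equal values are not separate results. Leaving out 1 batch gave -0.0127 to 0.151 in ESC-FCS, -0.0169 to 0.134 in NSC and -0.0234 to 0.118 in ESC-2i. A mean of 5 left 1 member in NSC and no value. Site differences numbered 2 (50 molecules), 2 (all 48 cells) and 2 to 3 (1 batch left out) in NSC against ESC-2i, 3 (50 molecules) and 3 to 4 in NSC against ESC-FCS, and 4 (5 percentage points), 1 (sites within 25 nt merged) and 2 to 3 in ESC-FCS against ESC-2i. Of 268 single log2 ratios 49 moved by more than their interval.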
